A study of Mus musculus with 17 samples.

Results

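Alpha-actinins and filamins are the large proteins that tie actin filaments to one another. The genes described here are Actn1, Actn2, Actn3 and Actn4 (the alpha-actinins), Flna and Flnc (filamins A and C) and Filip1l (filamin A interacting protein 1-like). They were chosen by name, with earlier results of these data known, around actin crosslinking families to be set paralog against paralog. They are 7 of the 56748 genes in the deposited table. Of the 7, 6 passed the filter on low counts, and Actn2 did not. Podocytes of the murine line E11 were cultured on polydimethylsiloxane (PDMS, a silicone) and their poly-A RNA was sequenced. The HF surface carried a high fractal relief drawn from tracings of healthy glomeruli (6 libraries), RT a round, non-fractal relief (6 libraries) and NT no relief (5 libraries). Line and material were shared by all groups, and RT and NT are the study's controls with and without relief. Since nothing states that libraries are separate cultures, the p-values here reflect library-to-library spread that could be technical.

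An alpha-actinin is an antiparallel dimer with an actin-binding domain at each end of a rod of spectrin repeats, and it holds filaments in parallel bundles. ACTN1 and ACTN4 are the non-muscle forms, found at focal adhesions, stress fibres and cell junctions, while ACTN2 and ACTN3 are the forms of the muscle Z disc. Filamins are longer and more flexible dimers of immunoglobulin-like repeats that cross filaments at wide angles into networks and bind integrins and many signalling proteins. In podocytes, whose foot processes are built on actin bundles, inherited changes of human ACTN4 cause a form of focal segmental glomerulosclerosis.

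The alpha-actinin paralogs are alike in sequence, so their reads could in principle be confused. The longest run of bases shared without a mismatch by the coding sequences of Actn1 (chromosome 12) and Actn4 (chromosome 7) (GENCODE M21) is shown here because it sets that limit.
Actn1 and Actn4: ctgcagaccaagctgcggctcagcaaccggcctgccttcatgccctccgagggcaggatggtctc
It is 65 bases long, shorter than a read of 150 bases, and the 2 coding sequences are 80.4% identical over 2671 aligned bases. The longest run shared by Actn1 and Actn3 (chromosome 19) is 34 bases, and that shared by Flna (chromosome X) and Flnc (chromosome 6) is 26 bases. No window of 100 bases in the longest transcript of any member was found in the transcript of another member. Because the libraries are non-directional, reads from overlapping genes on the opposite strand cannot be told apart. Antisense genes overlap 8.15% of the exonic bases of Actn1, and Capn12 overlaps 5.16% of those of Actn4. The antisense genes Gm47766 and Gm47767 averaged at most 0.703 and 0.629 CPM in any group, and Capn12 at most 0.567 CPM, far below Actn1 and Actn4. How reads over shared bases were counted is not given. These low values therefore do not show how many such reads Actn1 and Actn4 gained or lost. Actn3, Flna, Flnc and Filip1l had no exonic overlap.

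Total counts ran from 16180023 to 17765040 in HF, from 15659354 to 24072966 in RT and from 14913649 to 18644871 in NT. Levels are CPM (edgeR's depth-scaled counts, with library totals adjusted by TMM), and differences are log2 fold changes from edgeR's quasi-likelihood test, with p-values adjusted by Benjamini-Hochberg over the 15196 genes tested and called under 0.05. Markers of other cells were at low levels where they define striated muscle, endothelium and leukocytes. The 24 striated muscle genes summed to between 10.9 and 15.9 CPM in HF, 12.8 and 13.9 CPM in RT and 10.6 and 16.2 CPM in NT, mostly Tnnt3, and 7 of them, including Myod1, Myog and Myh1, had no counts. Endothelial markers summed to at most 3.45 CPM and immune markers to at most 2.87 CPM in any library. Of 12 podocyte markers, 7 (Wt1, Podxl, Synpo, Cd2ap, Foxc2, Lmx1b and Pdpn) averaged between 51.6 and 282 CPM in every group, Ptpro had 1 count in all and Tcf21 none. Wt1 and Pdpn fell on HF against NT, by 0.16 and 0.19 on the log2 scale (edgeR adjusted p = 0.0113 and 0.000972), and on RT against NT, by 0.24 and 0.13 (adjusted p = 6.16e-05 and 0.0309). They were 2 of 9 podocyte markers tested, where 0.829% and 1.44% of all genes were called lower in these comparisons. The 9 tubular epithelial markers, mostly Cdh16, Lrp2 and Aqp1, summed to between 1466 and 1815 CPM in HF, 1524 and 1716 CPM in RT and 1425 and 1782 CPM in NT. Among these markers, Slc34a1 and Aqp2 had no counts, and Umod had 3 and Slc12a3 21 counts over all libraries. Slc12a1 and Cubn averaged at most 3.51 and 5.24 CPM in any group. So some defining podocyte markers were absent, and of the tubular ones some were abundant and others absent or low.

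Per length of transcript, the non-muscle forms led by a wide margin, and the order of the members was the same on all 3 surfaces. Flna was highest, at 238 ± 6.51 CPM per kb in HF, 242 ± 5.59 in RT and 224 ± 9.56 in NT (SD, n = 6, 6 and 5). Actn4 followed at 173 ± 6.37 CPM per kb in HF, 169 ± 4.2 in RT and 159 ± 3.55 in NT, and Actn1 at 146 ± 4.45 in HF, 155 ± 2.47 in RT and 146 ± 4.32 in NT. Flnc stood at 43.3 ± 1.29 CPM per kb in HF, 45.2 ± 1.14 in RT and 38.5 ± 2.73 in NT. Filip1l was at 20.9 ± 0.926 CPM per kb in HF, 23.3 ± 1.05 in RT and 19.9 ± 0.747 in NT. Actn3 was far below, at 1.49 ± 0.196 CPM per kb in HF, 0.734 ± 0.201 in RT and 1.08 ± 0.417 in NT. By longest transcript, no neighbours in this order overlapped between libraries of the same surface. By coding length, Flna (247.3 CPM per kb in its lowest library) and Actn4 (250.6 in its highest) overlapped on HF, and Actn4 (213.3 in its lowest) and Actn1 (213.8 in its highest) on NT. By longest transcript, Actn4 made up 54.1% ± 0.397 of alpha-actinin levels in HF, 51.9% ± 0.525 in RT and 51.9% ± 0.947 in NT, and Actn1 nearly all of the rest.

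**Figure D1:**
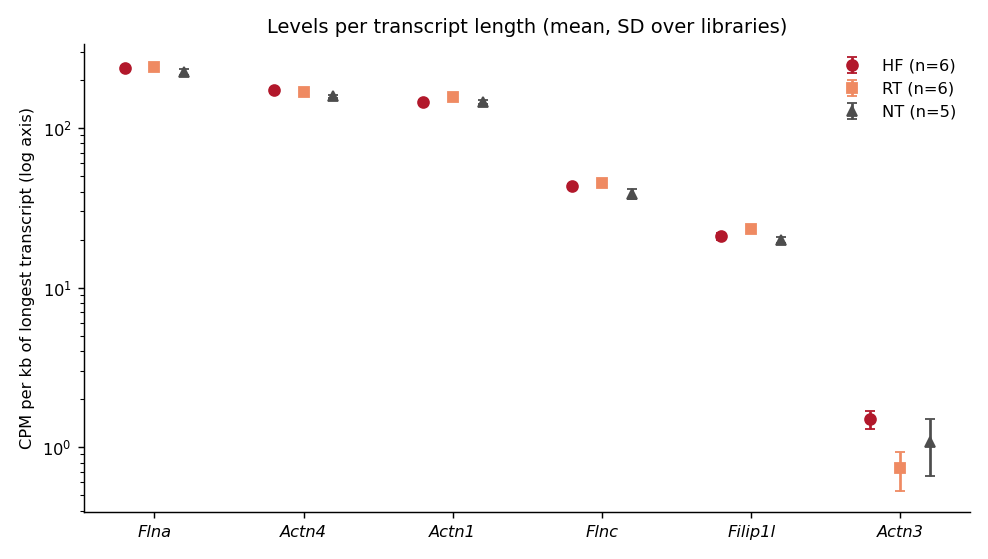
Mean level of each gene per kb of its longest annotated transcript on a log axis, with the SD over libraries, for HF (6 libraries), RT (6) and NT (5). Flna, Actn4 and Actn1 lie above 100 CPM per kb on every surface, and Actn3 lies near 1.

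Actn4 and Flnc rose on HF against NT, 2 of the 6 members tested, where 2.33% of all genes passed, 1.5% higher and 0.829% lower. The median log2 fold change of the 6 was 0.11, beside -0.00253 over all genes. Flnc and Filip1l rose on RT against NT, again 2 of 6, where 3.97% of all genes passed, 2.53% higher and 1.44% lower, with a median of 0.10 beside -0.00209. Actn3 was higher on HF than on RT, 1 of 6, where 0.211% of all genes passed, 0.132% higher and 0.079% lower, with a median of -0.04 beside -0.00072. None of the 6 fell in any of the 3 comparisons, while an unadjusted p under 0.05 was reached by 4 against NT on HF, where 14.2% of all genes reached it, by 6 against NT on RT (17.1% of all genes) and by 3 between HF and RT (8% of all genes).

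Counted by libraries that do not overlap, 1 member (Actn4) lay wholly higher on HF than on NT, where 2.18% of all genes did not overlap, 1.25% higher and 0.934% lower. Between HF and RT 1 lay wholly higher (Actn3) and 1 wholly lower (Actn1), where 0.967% of all genes did not overlap, 0.447% higher and 0.52% lower. On RT 4 members (Actn1, Actn4, Flnc and Filip1l) lay wholly higher than on NT, where 3.4% of all genes did not overlap, 2.18% higher and 1.22% lower. The comparisons of HF and of RT with NT share the NT libraries. In bulk RNA, fewer cells that express a gene and less of its RNA per cell cannot be told apart.

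**Figure D2:**
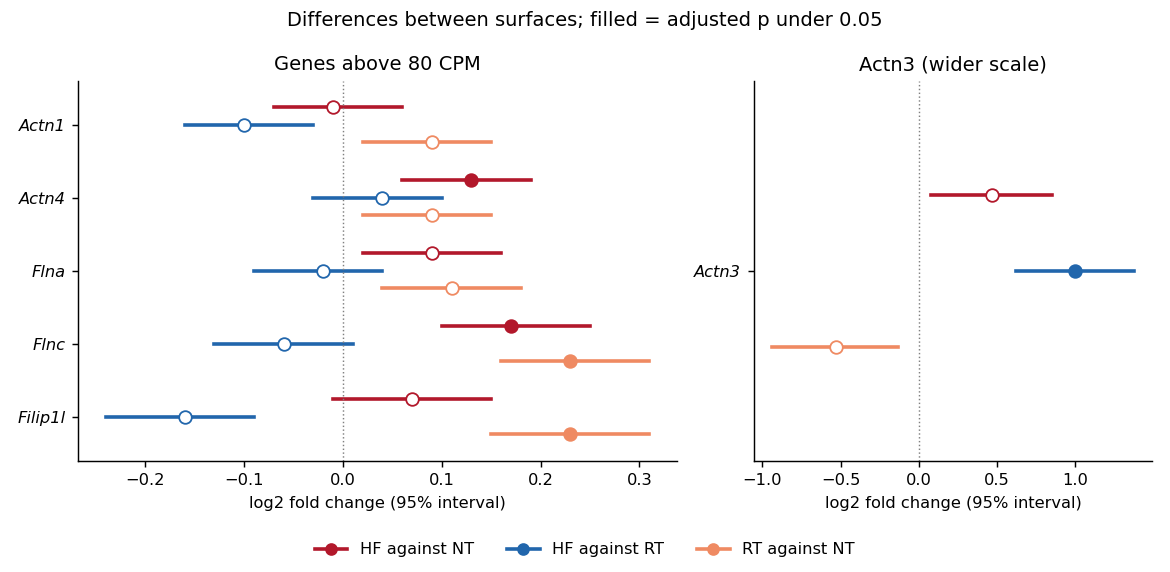
Log2 fold change of each tested member in the 3 comparisons, with its 95% interval. Filled points passed (adjusted p under 0.05), namely Actn4 and Flnc for HF against NT, Flnc and Filip1l for RT against NT and Actn3 for HF against RT. Actn3 is drawn on a wider scale.

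Actn4 (alpha-actinin 4, the form mutated in human kidney disease) had 637 CPM in the lowest, 674 at the median and 701 in the highest HF library. On RT it had 633, 653 and 679 CPM at the same points. In NT libraries 1 to 5 it had 623, 621, 596, 606 and 630.5 CPM. All HF and all RT libraries lay above all NT libraries, while HF and RT overlapped. On HF against NT its log2 fold change was 0.13 ± 0.03 (SE, edgeR adjusted p = 0.0285). Leaving out any of HF 1, HF 3, HF 4, NT 3 or NT 4 ended this call (adjusted p up to 0.0928), as did fitting HF and NT alone (adjusted p = 0.0903). On RT against NT it was 0.09 ± 0.03 (SE, adjusted p = 0.132), which passed with DESeq2 (adjusted p = 0.0349) and in none of the other 17 alternative settings, and between HF and RT it was 0.04 with a 95% interval from -0.03 to 0.10 (adjusted p = 0.840).

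Actn1 (alpha-actinin 1, the other non-muscle form) had a different pattern over the surfaces. It had 524 CPM in the lowest, 544 at the median and 565 in the highest HF library. On RT the same points were 573, 577 and 597 CPM. In NT libraries 1 to 5 it had 550.1, 541, 531, 572 and 536 CPM. All RT libraries lay above all HF and all NT libraries, narrowly so in RT 3 (572.9 CPM) against NT 4 (572.2 CPM), and HF and NT overlapped. No comparison of Actn1 passed in edgeR. The log2 fold change was -0.01 for HF against NT, with a 95% interval from -0.07 to 0.06 (adjusted p = 0.951). It was -0.10 ± 0.03 (SE, adjusted p = 0.248) for HF against RT and 0.09 ± 0.03 (SE, adjusted p = 0.121) for RT against NT. DESeq2 called both of the last comparisons (adjusted p = 0.0374 and 0.0221), the lowest of 19 and of 18 alternative settings, whose highest adjusted p was 0.520 and 0.261.

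**Figure D3:**
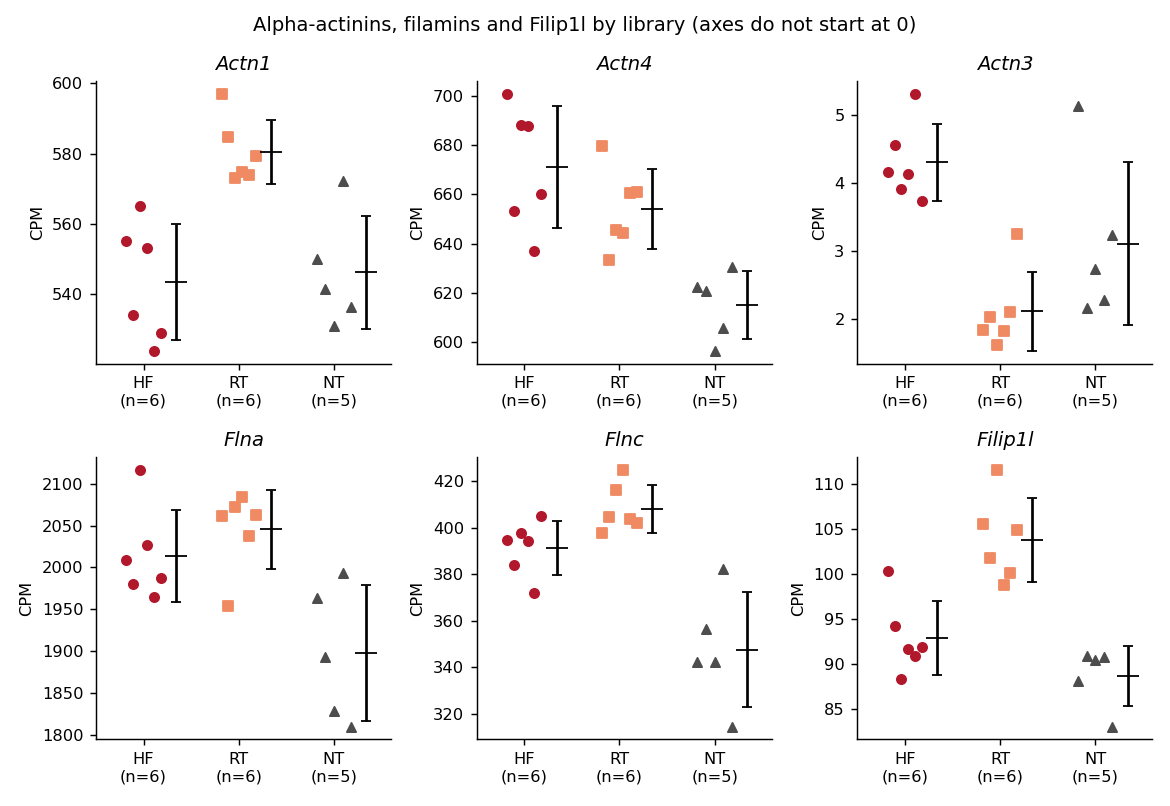
CPM of the 6 tested members in each library (points) with the mean and SD of each surface (bars at the right of each group). Axes do not start at 0. Actn1 is highest on RT, Actn4 is higher on HF and RT than on NT, and Actn3 is higher on HF than on RT in every library.

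The ratio of Actn4 to Actn1 within a library, which needs no scaling between libraries, set HF apart from both controls. On the log2 scale it was 0.34, 0.29, 0.28, 0.31, 0.28 and 0.32 in HF libraries 1 to 6. It was 0.19, 0.12, 0.17, 0.16, 0.20 and 0.19 in RT libraries 1 to 6, and 0.18, 0.20, 0.17, 0.08 and 0.23 in NT libraries 1 to 5. Every HF library was above every RT and every NT library, and RT and NT overlapped. The ratio on HF was 1.10-fold that on NT (log2 difference 0.13, exact two-sided permutation p = 0.00216, adjusted p = 0.00812 over 15 tests) and 1.10-fold that on RT (log2 difference 0.13, exact permutation p = 0.00216, adjusted p = 0.00812). Both are the smallest p such a test gives here, and 462 and 924 splits were enumerated. The ratio on RT differed from that on NT by a log2 difference of 0.00018 (exact permutation p = 0.989). The count ratio itself was 1.22 to 1.26 in HF, 1.08 to 1.15 in RT and 1.06 to 1.18 in NT, and both calls held when any 1 library was left out (log2 difference from 0.11 to 0.15 against NT and from 0.12 to 0.14 against RT).

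**Figure D4:**
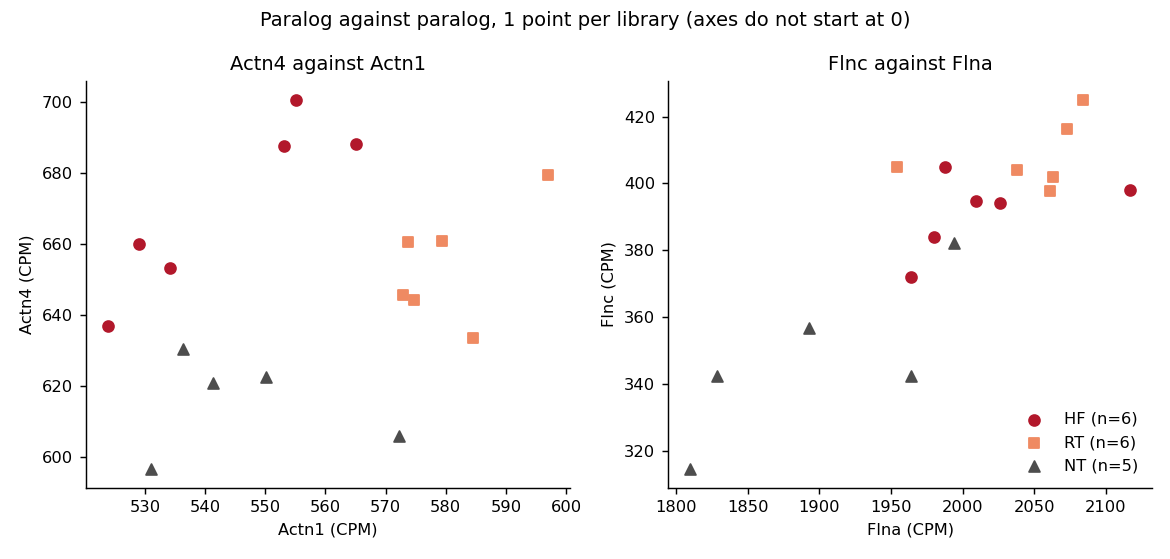
Actn4 against Actn1 (left) and Flnc against Flna (right), in CPM, with 1 point per library. Axes do not start at 0. In the left panel HF libraries lie at higher Actn4 for their Actn1 than RT or NT libraries, and in the right panel 4 of the 5 NT libraries lie at lower Flnc than every HF and RT library, while NT 4 lies within the HF range.

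Actn3 (alpha-actinin 3, the form of fast muscle fibres) had the largest difference and the lowest level of the 6 tested members. Its counts were 70, 81, 67, 71, 86 and 65 in HF libraries 1 to 6, which are 4.17, 4.56, 3.91, 4.14, 5.31 and 3.74 CPM. In RT libraries 1 to 6 its counts were 29, 33, 29, 35, 47 and 78, which are 1.85, 2.04, 1.63, 1.83, 2.11 and 3.25 CPM. In NT libraries 1 to 5 its counts were 83, 32, 51, 39 and 56, which are 5.13, 2.17, 2.74, 2.29 and 3.24 CPM. Every HF library lay above every RT library, RT 6 stood apart from the other RT libraries, and NT 1 lay within the HF range. No library had fewer than 29 counts, so its place among the genes tested rested on no single surface. On HF against RT its log2 fold change was 1.00 ± 0.19 (SE, adjusted p = 0.00855), and it was 0.93 to 1.18 when single libraries were left out, with the call kept each time. The other comparisons did not pass, with 0.47 ± 0.19 for HF against NT (SE, adjusted p = 0.226) and -0.53 ± 0.20 for RT against NT (SE, adjusted p = 0.143). Both depended on single libraries, since without NT 1 the value for HF against NT was 0.71 (adjusted p = 0.0216) and without RT 6 that for RT against NT was -0.71 (adjusted p = 0.0432), in ranges of adjusted p over alternatives from 0.0216 to 0.423 and from 0.0281 to 0.514.

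The genes on either side of Actn3 on chromosome 19, Ctsf (cathepsin F, a lysosomal protease) and Zdhhc24 (of the family of palmitoyltransferases), share none of its exons. Ctsf averaged 20.0 ± 2.22 CPM in HF, 18.4 ± 1.83 CPM in RT and 19.1 ± 1.33 CPM in NT (SD, n = 6, 6 and 5), and its log2 fold change for HF against RT was 0.12 ± 0.07 (SE, adjusted p = 0.735). Zdhhc24 averaged 33.6 ± 1.56 CPM in HF, 33.8 ± 0.919 CPM in RT and 33.6 ± 1.81 CPM in NT (adjusted p = 0.982 for HF against RT). Of the 24 striated muscle markers 7 were tested, and none of these passed in any comparison. Apart from Tnnt3, the SE of their log2 fold changes was 0.23 to 0.43, so sizeable differences could have gone uncalled. Against the sum of Actn1 and Actn4 in the same library, Actn3 was 2.09-fold higher on HF than on RT (log2 difference 1.07, exact permutation p = 0.00216, adjusted p = 0.00812). It did not pass for HF against NT (log2 difference 0.46, exact permutation p = 0.0714, adjusted p = 0.119) or for RT against NT (log2 difference -0.60, exact permutation p = 0.0346, adjusted p = 0.0649). Actn2 (alpha-actinin 2, of cardiac and skeletal muscle) had 1 count in RT 4 and none in the other 16 libraries. A count of 0 allows up to 3 counts, between 0.124 CPM in the deepest and 0.201 CPM in the shallowest library.

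**Figure D5:**
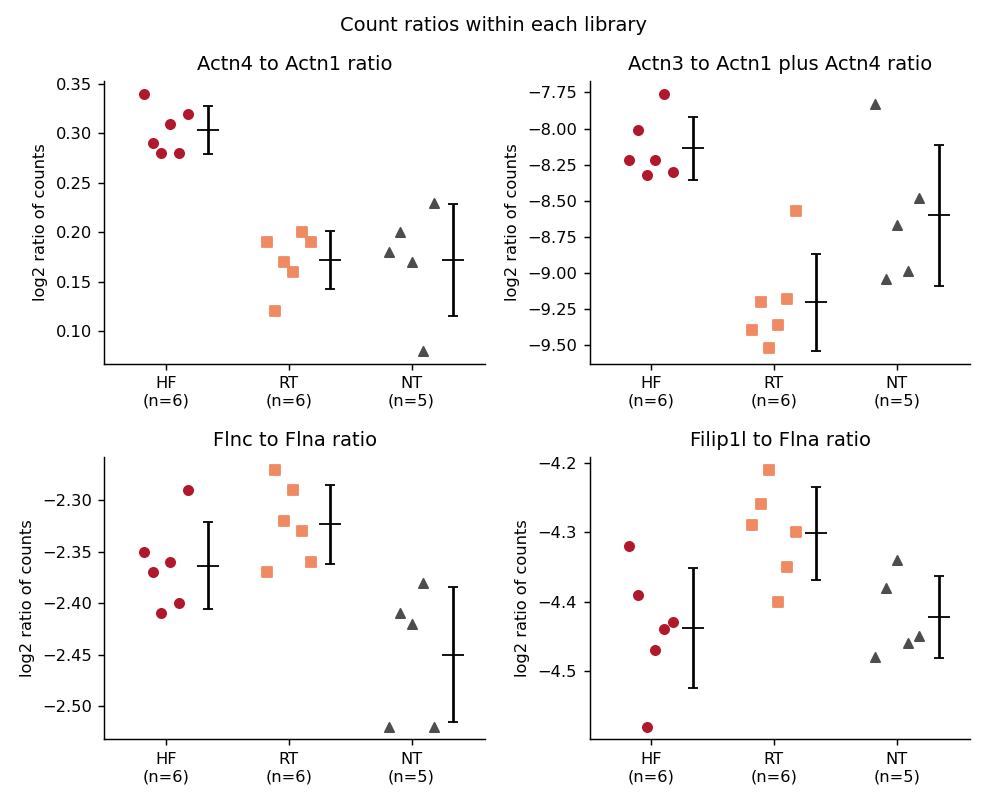
Log2 ratio of raw counts in each library (points), with the mean and SD of each surface (bars). The ratio of Actn4 to Actn1 is between 0.28 and 0.34 in HF and at most 0.23 in RT and NT, and the ratio of Flnc to Flna is higher in every RT library than in every NT library.

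Flna (filamin A, the main filamin of non-muscle cells) had 1964 CPM in the lowest, 1999 at the median and 2117 in the highest HF library. On RT the same points were 1954, 2062 and 2084 CPM. In NT libraries 1 to 5 it had 1964, 1893, 1829, 1994 and 1809.7 CPM. HF overlapped NT through NT 4 alone, and RT 2 lay below NT 1 and NT 4. The log2 fold change was 0.09 ± 0.03 for HF against NT (SE, adjusted p = 0.209) and 0.11 ± 0.03 for RT against NT (SE, adjusted p = 0.0665), neither past the threshold. RT against NT passed in 6 of 18 alternative settings, with adjusted p from 0.0078 with DESeq2 to 0.181 without NT 3. Between HF and RT it was -0.02, with a 95% interval from -0.09 to 0.04 (adjusted p = 0.940).

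Flnc (filamin C, the filamin of striated muscle Z discs and of stressed actin structures) had 372 CPM in the lowest, 394 at the median and 405 in the highest HF library. On RT the same points were 398, 404 and 425 CPM. In NT libraries 1 to 5 it had 342, 357, 342, 382 and 314 CPM. All RT libraries lay above all NT libraries, and HF overlapped NT only through NT 4. For RT against NT the log2 fold change was 0.23 ± 0.04 (SE, adjusted p = 0.00016), and for HF against NT 0.17 ± 0.04 (SE, adjusted p = 0.00768). Both calls held in all 18 alternative settings, with adjusted p of at most 0.000828 and 0.0357. Between HF and RT the difference was -0.06, with a 95% interval from -0.13 to 0.01 (adjusted p = 0.705).

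The balance of Flnc to Flna was higher on RT, and less securely on HF, than on NT. The log2 ratio of Flnc to Flna averaged -2.32 ± 0.04 on RT and -2.45 ± 0.07 on NT (SD, n = 6 and 5), a 1.09-fold higher ratio with no overlap (exact permutation p = 0.00216, adjusted p = 0.00812). On HF it averaged -2.36 ± 0.04, 1.06-fold that on NT (exact permutation p = 0.0195, adjusted p = 0.0417), a call that held in 3 of 11 fits with 1 library left out and was lost without HF 1, HF 2, HF 4, HF 5, HF 6, NT 1, NT 3 or NT 5 (adjusted p up to 0.0918). It did not pass between HF and RT (log2 difference -0.04, exact permutation p = 0.128, adjusted p = 0.192). The ratio of Flna to the sum of Actn1 and Actn4 did not pass in any comparison (log2 differences of at most 0.02, smallest exact permutation p = 0.387, adjusted p = 0.528).

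Filip1l (a homologue of the filamin-binding protein FILIP1) had 88.3 CPM in the lowest, 91.7 at the median and 100.3 in the highest HF library. On RT the same points were 98.8, 103 and 112 CPM. In NT libraries 1 to 5 it had 88.1, 90.9, 90.4, 90.7 and 83.0 CPM. All RT libraries lay above all NT libraries, while HF overlapped NT and overlapped RT only through HF 1. RT against NT gave 0.23 ± 0.04 on the log2 scale (SE, edgeR adjusted p = 0.000329), kept in all 18 alternative settings (adjusted p of at most 0.00191). HF against NT gave 0.07 ± 0.04 (SE, adjusted p = 0.459). HF against RT gave -0.16 ± 0.04 (SE, adjusted p = 0.0512), just short of a call, and passed in 7 of 19 alternative settings, with adjusted p from 0.0141 to 0.169. Its ratio to Flna was 1.09-fold higher on RT than on NT (exact permutation p = 0.0195, adjusted p = 0.0417) and on HF 0.909-fold that on RT (exact permutation p = 0.0108, adjusted p = 0.0325). The first call was lost without RT 1, RT 2, RT 3, RT 5, RT 6, NT 1, NT 4 or NT 5 (adjusted p up to 0.0918), and the second without RT 1, RT 2 or RT 3 (adjusted p up to 0.0541).

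Promoters of 6 members were at hand from RefSeq (build GRCm38.p6, the 250 bases before each start), and Actn3 is named only. They were searched on both strands for the CArG box, the site of the serum response factor, since actin-linked genes are its classic targets. It was found in 1.47% of the 32851 promoter windows of the mouse table. Of the members' windows only 1 held a match, the second start of Filip1l (chr16:57548992-57549241, plus strand), shown here with the box in capitals.
Filip1l: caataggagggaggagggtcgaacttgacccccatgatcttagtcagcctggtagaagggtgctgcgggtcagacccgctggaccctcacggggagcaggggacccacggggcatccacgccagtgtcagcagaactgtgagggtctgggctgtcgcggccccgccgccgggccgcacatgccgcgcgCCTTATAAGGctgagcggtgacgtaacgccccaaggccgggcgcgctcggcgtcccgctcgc
The box begins at position -62 from the start. The windows of Actn1, Actn2, Actn4, Flna and Flnc, and that of the first start of Filip1l, did not hold these letters. The search also covered TATAAA, held by no member's window and by 12.4% of all windows, the Sp1 GC box GGGCGG, held by those of Actn1, Actn2, Actn4, Flna and Flnc and by 32.7% of all, and the TEAD motif CATTCC, held by those of Actn4, Flna and 1 of the 2 of Flnc and by 12.6% of all.

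Across the 17 libraries, 10 of the 15 pairs of tested members had a Pearson correlation that passed after adjustment, and 7 a Spearman correlation. Of the Pearson correlations that passed, those of Actn3 with Actn1 (r = -0.64) and with Filip1l (r = -0.56) were negative and the rest positive. Correlations over all libraries include the differences between surfaces. On values centred within each surface, those of Actn3 with Actn1 and with Filip1l were -0.16 and -0.23. Actn3 with Flnc, which did not pass over all libraries (r = -0.34, permutation adjusted p = 0.237), was -0.53 on centred values. Within surfaces that pair had -0.99 in HF (exact permutation p = 0.00278, adjusted p = 0.0833 over 30 relations), -0.46 in RT (adjusted p = 0.716) and -0.49 in NT (not tested). Flna and Flnc had the highest Pearson r, 0.86 (permutation p = 3e-05, adjusted p = 0.00045 over 15 pairs) and a Spearman rho of 0.72 (permutation p = 0.00141, adjusted p = 0.0106). The r was 0.69 without the 2 libraries farthest from the median of Flna, and 0.64 on values centred within each surface. Within surfaces it was 0.50 in HF (exact permutation p = 0.31, adjusted p = 0.716 over 30 relations) and 0.38 in RT (exact permutation p = 0.443, adjusted p = 0.782), neither of which passed. In NT it was 0.78, which was not tested. Actn1 and Actn4 had r = 0.28 (permutation p = 0.273, adjusted p = 0.315) and rho = 0.31 (permutation p = 0.227, adjusted p = 0.262) over all libraries, and r = 0.56 on values centred within each surface. Within surfaces, r of the same pair was 0.92 in HF (exact permutation p = 0.0319, adjusted p = 0.319) and 0.53 in RT (exact permutation p = 0.312, adjusted p = 0.716), neither of which passed. In NT the r of Actn1 and Actn4 was -0.11, which was not tested. The difference between these correlations was not tested, and libraries share their scaling.

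Each member's most similar genes were taken as those with the highest Pearson r over the 17 libraries among 12203 genes, as a description. For Actn4 they were Myl9 (a regulatory light chain of smooth muscle and non-muscle myosin, r = 0.90), Sh2b1 (an adaptor of receptor signalling, 0.90) and Ulbp1 (0.87). For Flna they were Col4a6 (a chain of basement membrane collagen IV, r = 0.89), Unc5b (a netrin receptor, 0.89) and Apba1 (0.88). For Flnc they were Sbf1 (r = 0.91), Hspg2 (perlecan, a basement membrane proteoglycan, 0.91) and again Apba1 (0.89). For Actn1 they were Basp1 (r = 0.88), Fzd5 (a Wnt receptor, 0.86) and Kctd20 (0.86). For Filip1l they were Slc7a12 (an amino acid transporter, r = 0.84), Fhl1 (a LIM-domain protein of muscle, 0.84) and Adamtsl4 (0.82). For Actn3 they were St3gal1 (a sialyltransferase, r = 0.85), Trmt10a (0.81) and Chst2 (a carbohydrate sulfotransferase, 0.81).

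In the 4 lists of related genes, every gene that passed in edgeR was higher on HF or RT than on NT. In these comparisons 1.5% and 2.53% of all genes were called higher. Among other actin crosslinkers and bundlers, 1 of 20 tested rose on HF against NT and 3 on RT against NT, with median log2 fold changes of 0.08 and 0.07. Over the 18 alternative settings of each comparison, the crosslinkers called numbered 0 to 5 on HF and 1 to 4 on RT. Coro1c (coronin 1C) averaged 131 ± 7.54 CPM on HF and 118 ± 3.28 CPM on NT (SD, n = 6 and 5, log2 fold change 0.15 ± 0.04, SE, adjusted p = 0.0192, lost without HF 3, HF 4 or NT 3, at up to 0.0694, and with HF and NT alone in the fit, at 0.0557). On RT it averaged 136 ± 4.29 CPM (0.21 ± 0.04 against NT, SE, adjusted p = 0.000682). The others on RT were Cnn2 (calponin 2, 0.15 ± 0.04, SE, adjusted p = 0.0391) and Tagln (transgelin, a calponin relative of smooth muscle, 0.41 ± 0.12, SE, adjusted p = 0.0453). The calls of Cnn2 and Tagln passed in only 8 and 6 of 18 alternative settings (adjusted p up to 0.161 and 0.151, both without NT 3). Of 17 tested partners of alpha-actinin, Vcl (vinculin, which links alpha-actinin and talin at adhesions) rose on HF against NT by 0.21 ± 0.05 (SE, adjusted p = 0.0228, but 0.0578 without HF 4 and 0.0557 with HF and NT alone in the fit). On RT against NT, Vcl rose by 0.26 ± 0.05 (SE, adjusted p = 0.00334) and Csrp1 (a LIM protein of actin bundles) by 0.19 ± 0.04 (SE, adjusted p = 0.00466). Partners of alpha-actinin called numbered 0 to 3 on HF and 2 to 4 on RT over the alternative settings. Of 11 tested partners and regulators of filamin, Fblim1 (migfilin, which joins filamin to adhesions) rose on HF against NT by 0.35 ± 0.07 (SE, adjusted p = 0.00196) and on RT against NT by 0.32 ± 0.07 (SE, adjusted p = 0.00307), and partners of filamin called numbered 1 on HF and 1 to 2 on RT over those settings. Of 14 tested relatives with spectrin repeats or calponin homology domains, such as spectrins and plectin, none passed by edgeR in any comparison. An unadjusted edgeR p under 0.05 was reached by 2 of them for HF against NT, where 14.2% of all genes reached it. It was reached by 1 for RT against NT (17.1% of all genes) and by 1 between HF and RT (8% of all genes). By DESeq2 none of the 14 passed either. By edgeR, 2 passed on HF against NT and 4 on RT against NT without NT 5, and 1 on RT against NT without RT 3 or with no filter. Between HF and RT none of the genes of the 4 lists passed by edgeR or DESeq2. By edgeR, 1 crosslinker, 1 spectrin relative, 2 partners of alpha-actinin and 0 partners of filamin had an unadjusted p under 0.05. Of all genes, 8% had such a p between HF and RT. Median log2 fold changes on HF against NT were 0.04 for partners of alpha-actinin, 0.01 for partners of filamin and -0.02 for the spectrin relatives, and on RT against NT 0.03, 0.07 and -0.01.

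Of the 5 tested markers of smooth muscle and mesangial cells, 1 rose on HF against NT and 2 on RT against NT. Of all genes, 1.5% and 2.53% were called higher in these comparisons. The 9 markers of the list summed to between 810 and 885 CPM in HF, 782 and 860.0 CPM in RT and 681 and 777 CPM in NT, mostly Pdgfrb and Acta2. Acta2 (smooth muscle actin) averaged 364 CPM on HF, 363 CPM on RT and 261 CPM on NT, and it rose on HF and on RT against NT by 0.48 ± 0.10 each (SE, edgeR adjusted p = 0.0171 and 0.0121). Tagln was the other to rise on RT against NT. Pdgfrb (a receptor of mesangial cells and pericytes) averaged 478 CPM on HF, 457 CPM on RT and 478 CPM on NT and passed in no comparison (adjusted p = 0.986 for HF against NT and 0.273 for RT against NT). Myh11 averaged at most 0.416 CPM, Des at most 0.567 CPM and Rgs5 at most 0.175 CPM. Tagln stands in that list and in the list of crosslinkers. Fibroblast markers summed to between 31.7 and 57.5 CPM in HF, 39.2 and 58.5 CPM in RT and 19.2 and 39.5 CPM in NT, and none of the 3 tested passed. The part of either list in the differences of Flnc, Flna, Actn4 and Filip1l was not tested, nor was that of the podocyte markers Wt1 and Pdpn.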

How the data were processed

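The authors deposited unnormalized whole-number counts for each gene in each library. Libraries were poly-A selected, non-directional and read in pairs of 150 bases, per the labels' protocols. The submitters' processing notes name CASAVA, HISAT2 2.0.5, featureCounts 1.5.0-p3 and build GRCm39. The annotation release, strand setting and filters are not given in the sources used here. Symbols (52073 of 56748 identifiers), transcripts and overlaps came from GENCODE M21, on GRCm38. No gene position in the files' build is given, and promoters are RefSeq's on GRCm38.p6.

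All 17 libraries were fitted together with edgeR 4.0.16 (filterByExpr, TMM, quasi-likelihood F test, robust, two-sided), with 1 mean per surface, and p-values were adjusted over all 15196 genes tested. The test was checked on simulated data. SE was taken from the log2 fold change and its F statistic. Ratios are log2 ratios of raw counts with 0.5 added, tested by exact two-sided permutation and adjusted over 15 tests. Levels per kb use the longest annotated transcript. Correlations used 100000 permutations of log2 CPM (prior count 2).

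The members, the 4 gene lists and the 7 marker lists were chosen with earlier results of these data known. Named are the members, up to 4 genes past the threshold per list and comparison, and the 3 most similar genes of each member. Genes adjoining the members, and single markers named as high or at 0, were chosen after their values were seen. Some genes of these lists are not reported here. Alternatives were DESeq2 1.42.0, limma 3.58.1 (voom), DESeq2 size factors, no filter beyond 1 count, 2 groups only, a replicate block and leaving out each library. Total counts ran from 14.9 to 24.1 M. Floors (3 counts) cover counting error only. Libraries of the same number deviated together at most weakly (correlations from -0.0111 to 0.193 over 16 pairs). Some of these pairs exceeded the highest correlation with other numbers and some did not. RT 1 gave 0.193 with NT 1 and at most 0.00798 with other NT libraries, while HF 3 gave 0.00689 with NT 3 and up to 0.061 with others. The numbers were not taken to pair samples, though these correlations do not settle whether they do.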

Additional observations from a re-analysis of the deposited data

Results flagged for a closer look

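Of 33 groups of values checked (6 tested members and 5 ratios on 3 surfaces), 3 held a library far from the others of its surface, and chance flags about 1 in 20. Actn3 in RT 6 stood at 3.25 CPM, where the other RT libraries had 1.63 to 2.11 CPM. In the same library the log2 ratio of Actn3 to the sum of Actn1 and Actn4 was -8.57, where the others had -9.52 to -9.18. RT 6 was also the library with the highest total count. Without it the log2 fold change of Actn3 for HF against RT was 1.18. Flna in RT 2 stood at 1954 CPM, where the other RT libraries had 2038 to 2084 CPM.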

How the results depend on the processing

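Genes changed numbered 354 for HF against NT, and 538 with DESeq2, 597 with no filter beyond 1 count and 200 with those groups alone in the fit. For HF against RT they numbered 32, and 84, 148 and 113 under the same settings. Members changed numbered 1 rather than 2 for HF against NT in the fit of HF and NT alone, where Actn4 (0.13) did not pass. For HF against RT they numbered 3 with DESeq2, where Actn1 (-0.09) and Filip1l (-0.16) passed, and 2 with no filter or with HF and RT alone (Filip1l -0.16 in both). For RT against NT they numbered 5 with DESeq2, where Actn1 (0.09), Actn4 (0.09) and Flna (0.11) also passed, and Flna passed with limma voom (0.11) and with no filter (0.11). DESeq2 size factors and a pseudocount of 2 ended or added no call. By coding length, mean levels were 208.3 CPM per kb for Actn1, 232.0 for Actn4, 250.7 for Flna, 47 for Flnc and 28.1 for Filip1l.

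Whether replicate numbers pair the libraries was not settled by the correlations of same-numbered deviations (from -0.0111 to 0.193). Without a block, genes changed numbered 354 for HF against NT, 603 for RT against NT and 32 between HF and RT. With the replicate block, genes changed numbered 637 for HF against NT, 995 for RT against NT and 125 between HF and RT, and 594 for HF against NT with numbers 1 to 5 alone, an alternative chosen after seeing the data. Members changed numbered 2 for HF against RT (Filip1l -0.16), Flna passed for RT against NT (0.11), and Actn3 passed there with numbers 1 to 5 (-0.70). Paired ratios cannot pass after adjustment with 5 or 6 pairs (adjusted p = 0.117 by exact permutation at best). They gave 0.13 and 0.13 for Actn4 to Actn1 (HF against NT and against RT) and -0.0034 for RT against NT, which turned its sign, 1.07 for Actn3 (HF against RT), 0.07 and 0.13 for Flnc to Flna (HF and RT against NT), and -0.14 and 0.12 for Filip1l to Flna (HF against RT, RT against NT).

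With 1 library left out at a time, genes changed ran from 202 (without NT 3) to 604 (without NT 5) for HF against NT, from 14 (without RT 1) to 89 (without HF 3) between HF and RT, and from 365 (without NT 3) to 806 (without NT 5) for RT against NT. Members changed ran from 1 to 3, from 1 to 2 and from 2 to 3 in that order. For HF against NT, log2 fold changes ran from -0.02 to 0.01 for Actn1, which changed sign, from 0.37 to 0.71 for Actn3 and from 0.11 to 0.14 for Actn4. Between HF and RT, Filip1l ran from -0.18 to -0.14, and Fblim1 changed sign without HF 3 (-0.00079). For RT against NT, Actn3 ran from -0.71 to -0.28 and Flna from 0.09 to 0.13. Ratio differences ran from -0.02 to 0.02 for Actn4 to Actn1 (RT against NT), from 0.35 to 0.66 (HF against NT) and from -0.73 to -0.41 (RT against NT) for Actn3, and from 0.07 to 0.10 for Flnc to Flna (HF against NT). For Filip1l to Flna they ran from -0.04 to 0.01 (HF against NT), from 0.10 to 0.14 (RT against NT) and from -0.16 to -0.11 (HF against RT), and for Flna to Actn1 plus Actn4 from -0.01 to 0.01 (HF against RT). The ratios whose range includes 0 changed sign and passed in none of these fits. The cause of these changes was not tested. Depth limits Actn3, whose lowest count was 29, and Actn2.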
